A study of Homo sapiens with 6 samples.

Results

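The genes of cholesterol and fatty acid synthesis and of their control by sterol regulatory element binding proteins (SREBPs) were followed in MV4;11 cells treated with MI-389 or with DMSO. The set was a list of 32 genes ordered along the pathway, taken by gene symbol and chosen with earlier results of these data known. Of these, 31 had a value among the 18239 genes measured. FDFT1, the squalene synthase gene, was not analysed here. MV4;11 is an established human leukemia line with a rearranged MLL gene, and it stands for 1 cell line only. The MI-389 group had received 4 µM of this inhibitor of the menin-MLL interaction for 6 days, and the DMSO group the solvent alone for the same time. Both groups contained 0.25% DMSO, and on day 3 both received fresh medium with compound or solvent and were set back to their starting density. Each group held 3 arrays, called biological replicates in the labels. How the cultures were separated is not stated, so the p-values reflect only how far these samples scatter, part of which may be technical.

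Cholesterol is built from acetyl-CoA. The mevalonate arm makes farnesyl pyrophosphate, which also feeds the synthesis of ubiquinone, dolichol and the prenyl anchors of proteins, and the squalene and sterol arm turns it into cholesterol by way of lanosterol. When membrane sterols are low, SCAP escorts the SREBP precursors from the endoplasmic reticulum to the Golgi, where proteases release the active factors. When sterols are high, INSIG proteins hold SCAP back. Products of SREBF2 are best known for driving cholesterol enzymes, and those of SREBF1 for driving fatty acid enzymes.

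Values were log2 levels as deposited, 1 per probe set and array, and each gene was read by its brightest probe set. Array medians lay between 4.48 and 4.50 with MI-389 and at 4.47 with DMSO. Nonspecific control probe sets, leaving out the one of highest GC content, reached 5.49, which served as the guide to background. The bacterial and phage transcripts spiked in before hybridisation averaged 9.36, 9.27 and 9.26 with MI-389, against 8.99, 9.08 and 9.07 with DMSO, a difference of 0.25. The ACTB control read higher at its 3-prime than at its 5-prime end by 1.54, 1.48 and 1.91 with MI-389, against 1.39, 1.23 and 1.28 with DMSO. For the GAPDH control, 3-prime minus 5-prime was 0.043, 0.053 and 0.015 with MI-389, against -0.12, -0.12 and -0.084 with DMSO. The 18S ribosomal RNA control was at 11.5, 11.0 and 11.6 with MI-389, against 9.68, 9.86 and 10.3 with DMSO. Of 14 measured monocyte and macrophage markers 12 were higher, and their mean level per array was 7.77 to 7.86 with MI-389, against 5.14 to 5.22 with DMSO. CD14, FCN1, VCAN and CLEC7A of that list were under 5.49 in both groups. For the leukemia line itself, FLT3 stood at 9.59 with MI-389 and 11.01 with DMSO, CEBPA at 11.29 with MI-389 and 10.63 with DMSO, and SPI1 and ANPEP were under 5.49 in both groups. All 4 T cell and all 3 measured erythroid markers lay under 5.49 in both groups, as did 3 of 4 B cell and 3 of 4 epithelial markers. The part of the marker shift, the spike-in offset and the RNA controls in the results that follow was not tested, except that the arrays were also centred on the spike-ins.

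Enzymes of cholesterol synthesis were higher after MI-389, while SREBF1 and, among the fatty acid enzymes, ACACA, SCD and FASN were lower and ACSS2 and FADS1 higher. Of 17 measured cholesterol enzymes 12 rose (70.6%) and 0 fell at a limma adjusted p under 0.05, also 0 at an unadjusted p under 0.05, with a median difference of 0.36 on the log2 scale. After centring on the spike-ins, 6 of the 17 were higher and 3 lower, where 7.66% of all genes were higher and 60.6% lower. Among all 18239 genes, in the values as deposited, 18.4% were called higher and 15.7% lower, with a median difference of 0.018. The 6 genes of the SREBP system counted 0 higher, also 0 at an unadjusted p under 0.05, and 1 lower, and the 8 genes of the fatty acid arm 2 higher and 3 lower. Over all 31 genes, 14 were higher (45.2%) and 4 lower (12.9%), the second share being close to the 15.7% of all genes. All genes include many dim ones, as both group means were under 5.49 for 9311 of the 18239, against 4 of the 31. With the dimmest 40% of genes left out, 3221 of 10943 genes were higher and 2845 lower, and the pathway set still counted 14 and 4. All MI-389 arrays lay above all DMSO arrays for 15 of the 31 and below them for 3, against 24.9% and 20.5% of all genes. In bulk RNA, a change in how many cells express a gene and a change in RNA per cell cannot be told apart.

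**Figure D1:**
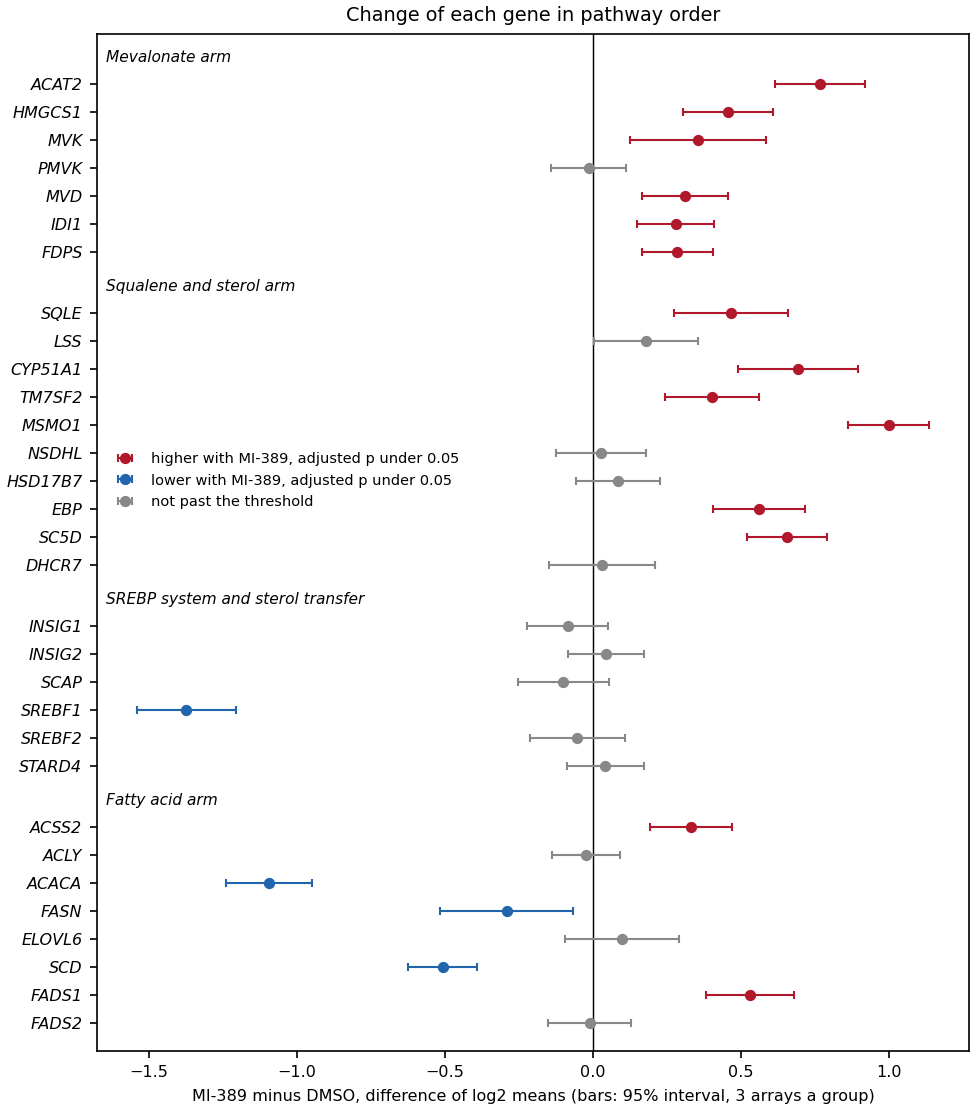
The difference of log2 means, MI-389 minus DMSO, is plotted for the 31 genes from the start of the pathway to its end, with 95% intervals from limma (3 arrays a group) and colours for genes called higher, lower or not called. The cholesterol arms lie at or right of 0 except PMVK at -0.01, SREBF1 stands at -1.37 and ACACA at -1.09.

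Promoter sequence is shown for 2 genes that rose, 2 that fell and SREBF2, as examples picked with their values known, because SREBPs act with NF-Y, which binds CCAAT, at sites of the sterol regulatory type. The windows ran from 250 bases before to 50 bases after each RefSeq start of GRCh38.p14, and 28 of the measured genes had at least 1, with 39 windows in all. No window was used for ACAT2, SQLE and FASN. The 250 bases before the start are printed 5′ to 3′ on the gene's own strand, with every match on either strand to TCACNCCAC or CCAAT in capitals. MSMO1 (chr4:165327419-165327668, plus strand) and CYP51A1 (chr7:92134478-92134727, minus strand) rose, SREBF1 (chr17:17836987-17837236, minus strand) and SCD (chr10:100346983-100347232, plus strand) fell, and SREBF2 (chr22:41832855-41833104, plus strand) was not called.
MSMO1: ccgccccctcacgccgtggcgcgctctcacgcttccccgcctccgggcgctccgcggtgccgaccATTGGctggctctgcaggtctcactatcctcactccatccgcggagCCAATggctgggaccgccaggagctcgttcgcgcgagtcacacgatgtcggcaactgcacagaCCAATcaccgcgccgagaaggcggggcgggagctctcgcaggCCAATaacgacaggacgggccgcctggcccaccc
CYP51A1: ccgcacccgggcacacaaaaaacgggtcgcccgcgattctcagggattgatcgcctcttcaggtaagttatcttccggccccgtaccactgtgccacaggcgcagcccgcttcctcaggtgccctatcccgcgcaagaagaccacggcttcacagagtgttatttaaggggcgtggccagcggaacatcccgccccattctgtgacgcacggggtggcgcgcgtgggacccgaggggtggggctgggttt
SREBF1: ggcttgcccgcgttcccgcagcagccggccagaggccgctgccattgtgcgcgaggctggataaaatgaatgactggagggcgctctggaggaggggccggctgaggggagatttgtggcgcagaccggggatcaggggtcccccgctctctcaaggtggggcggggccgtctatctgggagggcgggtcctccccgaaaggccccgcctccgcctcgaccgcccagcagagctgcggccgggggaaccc
SCD: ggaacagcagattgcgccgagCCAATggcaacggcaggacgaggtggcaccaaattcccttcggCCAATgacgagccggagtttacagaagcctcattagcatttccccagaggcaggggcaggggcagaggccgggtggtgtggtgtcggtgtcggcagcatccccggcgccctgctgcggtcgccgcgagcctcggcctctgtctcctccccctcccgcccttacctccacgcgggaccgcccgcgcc
SREBF2: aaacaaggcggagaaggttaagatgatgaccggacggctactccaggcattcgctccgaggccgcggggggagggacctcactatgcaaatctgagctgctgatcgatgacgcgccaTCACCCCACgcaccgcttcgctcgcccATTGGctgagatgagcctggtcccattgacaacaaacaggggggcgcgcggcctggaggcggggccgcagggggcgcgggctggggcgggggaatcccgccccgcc

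The MSMO1 stretch held 4 CCAAT matches, SCD 2 and SREBF2 1, and CYP51A1 and SREBF1 held 0. The letters TCACNCCAC, read here as the sterol regulatory motif, matched 1 of the 39 windows (2.56%), against 1.15% of the windows of all genes measured. Sites that vary from these letters were not counted. That match was TCACCCCAC in SREBF2, with its first base at -133 from the start. CCAAT was in 25 of 39 windows (64.1%), against 34.7% of the windows of all measured genes. By gene, it was found for 10 of 12 that rose, 2 of 3 that fell and 9 of 13 that were not called. The Sp1 box GGGCGG was in 35 of 39 windows (89.7%, against 57.2%) and the E-box CACGTG in 5 (12.8%, against 8.28%), both strands being read and 0 matches sharing bases with another motif. Windows of 1 gene can overlap, as for SC5D and ACLY, so a site can count more than once. By gene, the E-box was found for 4 of 28. Such matches describe letters in these windows and say nothing of binding.

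The mevalonate arm was higher in 6 of its 7 genes, with a median difference of 0.31. ACAT2, the thiolase that joins 2 acetyl-CoA, had log2 levels of 9.85, 9.69 and 9.85 with MI-389, against 9.10, 8.94 and 9.05 with DMSO. Every MI-389 array lay above every DMSO array, and ACAT2 rose 1.70-fold (difference 0.77, SE 0.068, limma adjusted p = 1.19e-05), the largest difference of this arm. HMGCS1, which adds the next acetyl unit to form HMG-CoA, read 7.98, 8.07 and 8.11 with MI-389, against 7.61, 7.69 and 7.48 with DMSO. The groups did not overlap, and HMGCS1 rose 1.37-fold (difference 0.46, SE 0.068, adjusted p = 4.49e-04). MVK, the mevalonate kinase, read 5.75, 5.79 and 5.74 with MI-389, against 5.55, 5.54 and 5.13 with DMSO, where the third DMSO array was the lowest. As its DMSO mean was under 5.49, that level took its place in the fold, and MVK rose 1.21-fold. From the measured means the difference was 0.36 (SE 0.103, limma adjusted p = 0.0226). The call of MVK was lost without any 1 of the MI-389 arrays (adjusted p = 0.0501 to 0.0665), and without DMSO replicate 3 the difference was 0.22.

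PMVK, the kinase of the following step, was the exception of the arm. It read 7.90, 7.89 and 7.99 with MI-389, against 7.95, 7.90 and 7.97 with DMSO, and the difference of -0.01 had a 95% interval of -0.14 to 0.11. MVD, which makes isopentenyl pyrophosphate, read 6.17, 6.25 and 6.25 with MI-389, against 6.03, 5.84 and 5.86 with DMSO. This gene rose 1.24-fold (difference 0.31, SE 0.065, adjusted p = 0.00387). IDI1, the isomerase of that product, averaged 9.10 ± 0.023 with MI-389 and 8.82 ± 0.072 with DMSO (SD, n = 3 arrays each), 1.21-fold higher (adjusted p = 0.00352 in limma). FDPS, which makes farnesyl pyrophosphate, averaged 9.52 ± 0.029 with MI-389 and 9.23 ± 0.038 with DMSO, 1.22-fold higher (adjusted p = 0.00198). For these 3 genes all MI-389 arrays were above all DMSO arrays. FDPS has pseudogenes, as does HSD17B7. Cross-hybridisation was not checked for any gene, because probe sequences were not used here.

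In the squalene and sterol arm 6 of 10 measured genes rose, with a median difference of 0.43 over the 10. SQLE, the squalene epoxidase, read 8.77, 8.75 and 8.97 with MI-389, against 8.50, 8.38 and 8.22 with DMSO. The groups were apart, and SQLE rose 1.38-fold (difference 0.47, SE 0.086, adjusted p = 0.00177). LSS, which closes the rings to lanosterol, read 6.00, 6.01 and 5.99 with MI-389, against 5.86, 5.96 and 5.65 with DMSO. Its groups did not overlap either, but the difference of 0.18 missed the threshold (95% interval 0.005 to 0.35, limma adjusted p = 0.111). LSS passed it without DMSO replicate 2 (0.25, adjusted p = 0.0426) and with the mean of its 3 probe sets (0.19, adjusted p = 0.0364). CYP51A1, the cytochrome that removes the first methyl group of lanosterol, read 9.47, 9.45 and 9.76 with MI-389, against 8.99, 8.80 and 8.81 with DMSO. The rise was 1.62-fold (difference 0.69, SE 0.090, adjusted p = 1.78e-04), with the third MI-389 array the highest. TM7SF2, a sterol reductase, read 6.82, 6.91 and 6.79 with MI-389, against 6.44, 6.32 and 6.56 with DMSO, a 1.32-fold rise (difference 0.40, SE 0.071, adjusted p = 0.00133).

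MSMO1, the methyl sterol oxidase whose promoter is printed above, had the largest difference of all cholesterol enzymes measured. It read 8.03, 8.003 and 8.06 with MI-389, against 7.12, 7.03 and 6.94 with DMSO, and rose 2.00-fold (difference 1.00, SE 0.061, 95% interval 0.86 to 1.14, adjusted p = 8.01e-07). NSDHL, the dehydrogenase of the same demethylation step, was not called. It read 7.01, 6.83 and 7.04 with MI-389, against 6.93, 6.89 and 6.98 with DMSO (difference 0.03, interval -0.12 to 0.18). HSD17B7, the ketone reductase that completes it, stayed under 5.49 in both groups (4.01, 4.02 and 4.18 with MI-389, against 3.95, 3.99 and 4.01 with DMSO), so no fold is given. Whether MSMO1 responded differently from these genes was not tested.

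EBP, the isomerase that moves a double bond of the sterol ring, read 8.88, 8.83 and 8.70 with MI-389, against 8.25, 8.15 and 8.33 with DMSO. All MI-389 arrays lay higher, and EBP rose 1.48-fold (difference 0.56, SE 0.069, adjusted p = 1.27e-04). SC5D, the desaturase that follows, read 8.63, 8.60 and 8.66 with MI-389, against 7.98, 7.88 and 8.06 with DMSO. Its rise was 1.57-fold (difference 0.66, SE 0.061, adjusted p = 1.68e-05), and the spread within each group was small beside it. DHCR7, the reductase of the last step, lay under 5.49 in both groups (4.85, 4.70 and 4.81 with MI-389, against 4.92, 4.64 and 4.70 with DMSO).

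**Figure D2:**
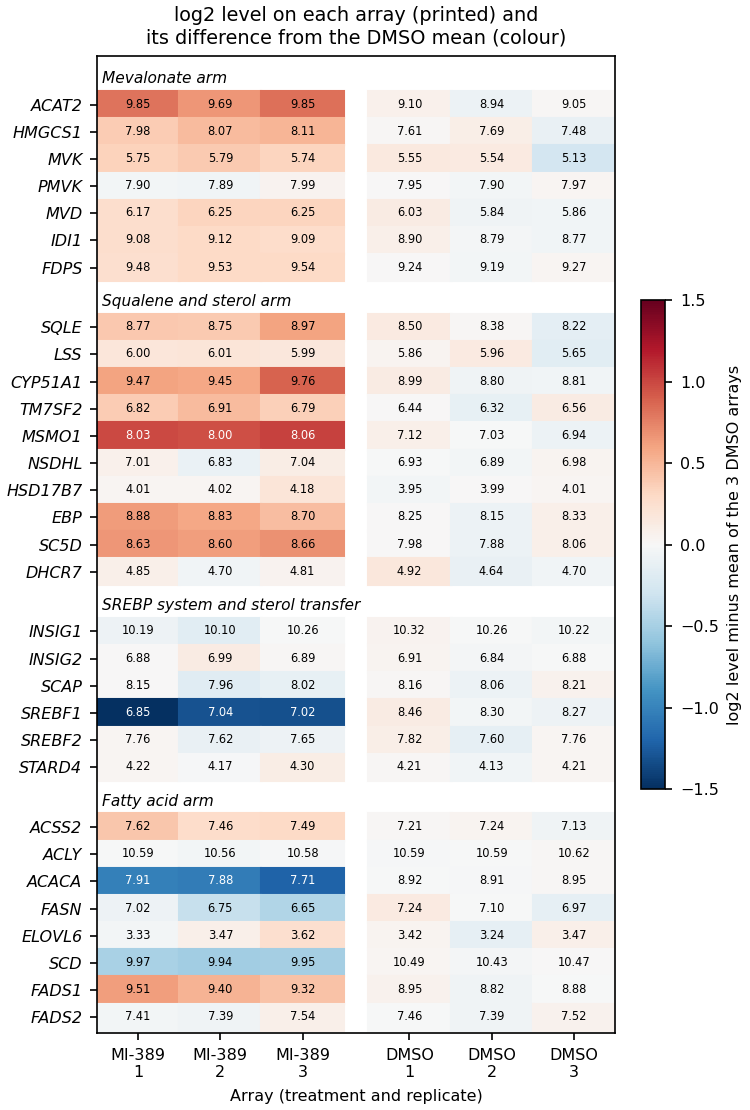
Each cell gives the log2 level of 1 gene on 1 array, coloured by its difference from the mean of the 3 DMSO arrays, with genes in pathway order and the MI-389 arrays on the left. The 3 MI-389 columns are close for MSMO1 at 8.03, 8.003 and 8.06 and for SREBF1 at 6.85, 7.04 and 7.02. They spread more for FASN, at 7.02, 6.75 and 6.65.

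Of the control system only SREBF1 was called among its 6 genes in the values as deposited. After centring on the spike-ins all 6 were called lower, as were 60.6% of all genes. STARD4, 1 of the 6, lay under 5.49 in both groups as deposited. SREBF1, which encodes SREBP1, read 6.85, 7.04 and 7.02 with MI-389, against 8.46, 8.30 and 8.27 with DMSO. The groups were more than 1 unit apart at every array, and SREBF1 fell to a level 2.59-fold lower with MI-389 (difference -1.37, SE 0.075, 95% interval -1.54 to -1.20, adjusted p = 3.53e-07). A second SREBF1 probe set read 6.84, 6.99 and 6.97 with MI-389, against 7.37, 7.17 and 7.18 with DMSO, a smaller difference of -0.31 (SE 0.073, limma adjusted p = 0.00995 over all probe sets). The third was under 5.49 in both groups, and the mean of all 3 differed by -0.60. Which transcript forms these probe sets read was not examined.

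SREBF2, which encodes SREBP2, read 7.76, 7.62 and 7.65 with MI-389, against 7.82, 7.60 and 7.76 with DMSO. These ranges overlap, and the difference of -0.05 (interval -0.21 to 0.11, adjusted p = 0.645) was not called. A dimmer SREBF2 probe set, at 5.49, 5.66 and 5.61 with MI-389, against 6.00, 5.84 and 5.86 with DMSO, was lower (difference -0.31, SE 0.070, adjusted p = 0.00638 in the limma fit over probe sets). With the mean of its 3 probe sets SREBF2 was called lower, at -0.18 (adjusted p = 0.0179).

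INSIG1, a retention factor and itself a known SREBP target, read 10.19, 10.10 and 10.26 with MI-389, against 10.32, 10.26 and 10.22 with DMSO. The groups overlapped, and the difference was -0.08 (interval -0.22 to 0.05, adjusted p = 0.350). INSIG2, its relative, differed by 0.04 (interval -0.08 to 0.17) and SCAP, the escort, by -0.10 (interval -0.25 to 0.05). STARD4, a carrier of cholesterol between membranes, was under 5.49 in both groups on all 5 of its probe sets.

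In the fatty acid arm the enzymes differed in direction. ACSS2, which makes acetyl-CoA from acetate, read 7.62, 7.46 and 7.49 with MI-389, against 7.21, 7.24 and 7.13 with DMSO, and rose 1.26-fold (difference 0.33, SE 0.062, adjusted p = 0.00197). ACLY, which makes it from citrate, read 10.59, 10.56 and 10.58 with MI-389, against 10.59, 10.59 and 10.62 with DMSO. With a difference of -0.02 and an interval of -0.14 to 0.09, it was not called.

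ACACA, the carboxylase that commits acetyl-CoA to fatty acids, read 7.91, 7.88 and 7.71 with MI-389, against 8.92, 8.91 and 8.95 with DMSO. The groups were well apart, and ACACA was 2.14-fold lower with MI-389 (difference -1.09, SE 0.065, adjusted p = 6.3e-07). FASN, the fatty acid synthase, read 7.02, 6.75 and 6.65 with MI-389, against 7.24, 7.10 and 6.97 with DMSO. Here the groups overlapped, and the difference of -0.29 only just passed the threshold (SE 0.101, adjusted p = 0.0493). The call of FASN was lost without MI-389 replicate 2 or 3 or DMSO replicate 1 or 2 (adjusted p = 0.114 to 0.174), and with array weights (adjusted p = 0.0683).

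SCD, the desaturase that makes oleate, read 9.97, 9.94 and 9.95 with MI-389, against 10.49, 10.43 and 10.47 with DMSO. It had the smallest SE of the 4 genes that fell and was 1.42-fold lower (difference -0.51, SE 0.052, adjusted p = 3.37e-05). FADS1, a desaturase of polyunsaturated fatty acids, read 9.51, 9.40 and 9.32 with MI-389, against 8.95, 8.82 and 8.88 with DMSO. This gene rose 1.45-fold (difference 0.53, SE 0.066, adjusted p = 1.35e-04), with no overlap. FADS2, its neighbour in the same pathway, read 7.41, 7.39 and 7.54 with MI-389, against 7.46, 7.39 and 7.52 with DMSO (difference -0.01, interval -0.15 to 0.13). ELOVL6, an elongase, was under 5.49 in both groups.

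The 31 genes had 83 probe sets, of which 33 were called higher and 6 lower, against 14.0% higher and 14.0% lower of all 49293 probe sets. In 27 of the 83 both group means were under 5.49, against 30383 of the 49293. Every probe set was called higher for ACAT2 (3 of 3, differences 0.62 to 0.77), SQLE (4 of 4, 0.19 to 0.48), SC5D (4 of 4, 0.41 to 0.70) and FADS1 (3 of 3, 0.40 to 0.53). HMGCS1, FDPS, CYP51A1 and EBP had both of their probe sets higher. The dimmer one of HMGCS1, of CYP51A1 and 1 of the 4 of SC5D lay under 5.49. IDI1 had 1 of 2 higher, the other being above 5.49 and not called (difference 0.11, adjusted p = 0.205). MSMO1 had 3 of 4 higher, the other lying under 5.49, and the mean of its 4 differed by 0.67. The single probe set of FASN missed the threshold in this fit (adjusted p = 0.0589). For ACACA 2 of 3 were lower, with a mean difference of -0.51 over the 3. Only the brightest of the 3 lay above 5.49, so 1 of the lower ones and the uncalled one were under it. For SCD 1 of 4 was lower, the other 3 lying under 5.49 in both groups. The mean of the SCD probe sets differed by -0.16 and was not called (limma adjusted p = 0.0861).

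**Figure D3:**
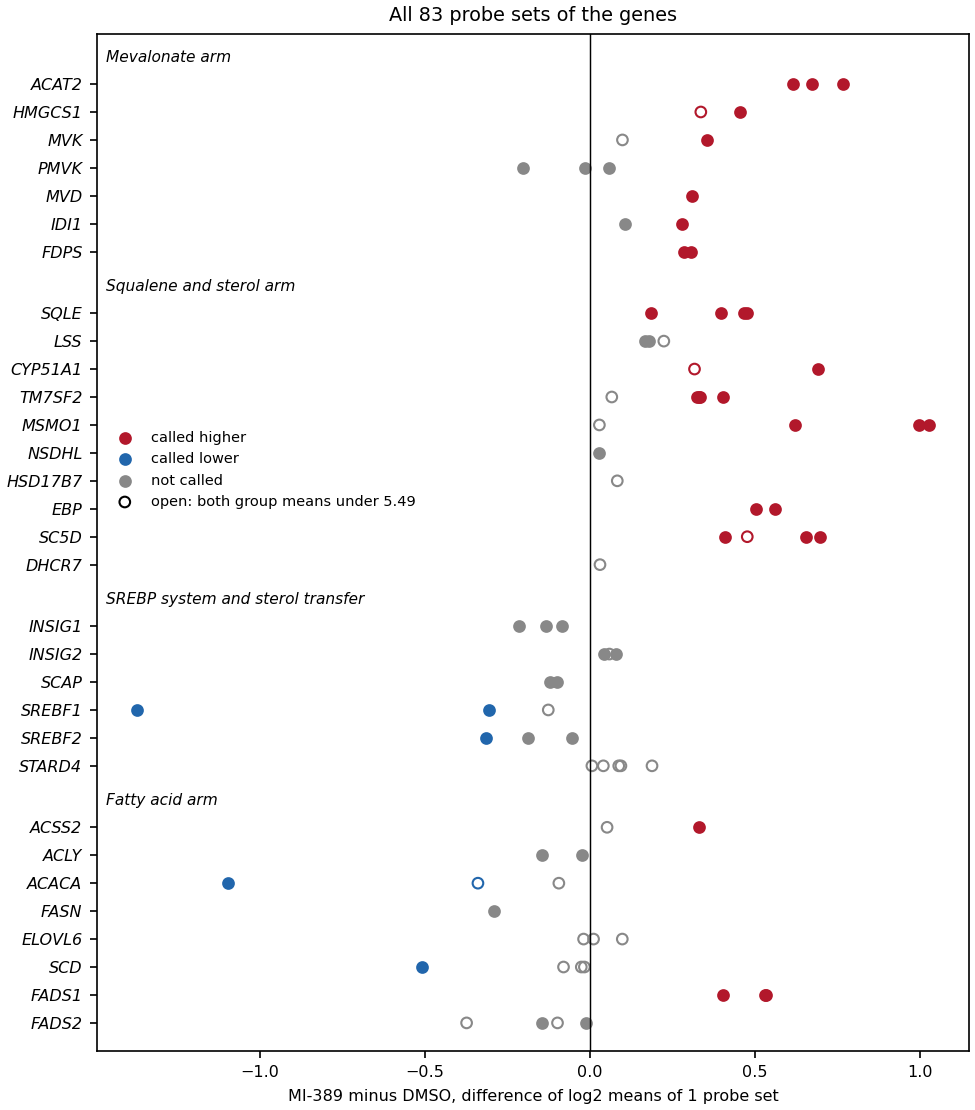
Each point is 1 of the 83 probe sets of the 31 genes, placed by its difference of log2 means, MI-389 minus DMSO. Colours mark probe sets called higher, lower or not called, and open points have both group means under 5.49. The 4 points of SC5D lie between 0.41 and 0.70, while the 3 of SREBF1 spread from -1.37 to -0.13.

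Further genes around the pathway were read from 4 lists, of whose 60 genes 54 were measured, 19 higher (35.2%) and 14 lower (25.9%), against 18.4% and 15.7% of all genes. The shares of all genes, set beside each list, include many dim genes. Both group means were under 5.49 for 6 of the 54, against 9311 of the 18239. With the dimmest 40% of genes left out, 55.4% of 10943 genes were called, 3221 higher and 2845 lower. The shares of all genes thus understate those of brighter genes. Of 9 measured sterol enzymes and sterol sensing genes outside the set, 5 were higher (55.6%) and 1 lower (11.1%). ERG28, a scaffold of the sterol demethylation enzymes, read 7.26, 7.16 and 7.09 with MI-389, against 6.11, 6.10 and 6.13 with DMSO, and rose 2.08-fold (adjusted p = 4.32e-07). The proteases that cut SREBPs in the Golgi went opposite ways. MBTPS1, which makes the first cut, read 7.36, 7.50 and 7.27 with MI-389, against 6.80, 6.58 and 6.64 with DMSO, a 1.63-fold rise (adjusted p = 5.85e-05). MBTPS2, which makes the second, read 8.25, 8.45 and 8.29 with MI-389, against 8.81, 8.80 and 8.86 with DMSO, 1.41-fold lower (adjusted p = 1.92e-04). ERLIN1, an endoplasmic reticulum protein that restrains SREBP activation, rose by 0.48 (adjusted p = 2.05e-04).

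The branches that draw on mevalonate counted 3 of 12 higher (25.0%) and 4 lower (33.3%), against the same 18.4% and 15.7%. PDSS1 and COQ2, which build ubiquinone, rose by 0.57 and 0.52. GGPS1, which makes geranylgeranyl pyrophosphate, fell by 0.49, and the dolichol enzymes NUS1 and DHDDS fell by 0.26 and 0.21. PGGT1B, a subunit of a protein prenyltransferase, rose by 0.27.

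Of 17 other measured genes of fatty acid and glycerolipid synthesis, 5 were higher (29.4%) and 4 lower (23.5%), where all genes gave 18.4% and 15.7%. ACSL1, which activates long-chain fatty acids, read 9.42, 9.44 and 9.54 with MI-389, against 10.53, 10.52 and 10.45 with DMSO, 2.04-fold lower (adjusted p = 4.72e-07). MID1IP1, which promotes polymerisation of acetyl-CoA carboxylase, read 8.07, 8.15 and 8.02 with MI-389, against 9.18, 9.06 and 9.06 with DMSO, 2.02-fold lower (adjusted p = 7.91e-07). Both falls were close in size to that of ACACA. In the elongation cycle HACD2 rose by 0.62 and HSD17B12 fell by 0.70. SLC25A1, the citrate carrier of mitochondria, rose by 0.36, and ACSL5 by 0.28.

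Among 16 measured genes of cholesterol uptake, storage and efflux 6 were higher (37.5%) and 5 lower (31.2%), beside 18.4% and 15.7% of all genes. NPC2, which carries cholesterol out of lysosomes, read 11.15, 11.08 and 11.12 with MI-389, against 9.79, 9.69 and 9.84 with DMSO, a 2.54-fold rise (adjusted p = 7.63e-08). LIPA, the lysosomal acid lipase, rose 2.18-fold, and SOAT1, which esterifies cholesterol for storage, rose 1.51-fold. VLDLR, a lipoprotein receptor with 1 probe set, read 5.71, 5.84 and 6.13 with MI-389, against 9.21, 9.24 and 9.15 with DMSO. It was 9.92-fold lower (difference -3.31, SE 0.096, adjusted p = 4.19e-09), the largest difference among these 54 genes. NCEH1, a cholesteryl ester hydrolase, was 1.71-fold lower and ABCA1, a cholesterol exporter, 1.67-fold lower. The monocyte and macrophage markers given above changed in the same comparison, 12 of 14 being higher, and their part in these differences was not tested.

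**Figure D4:**
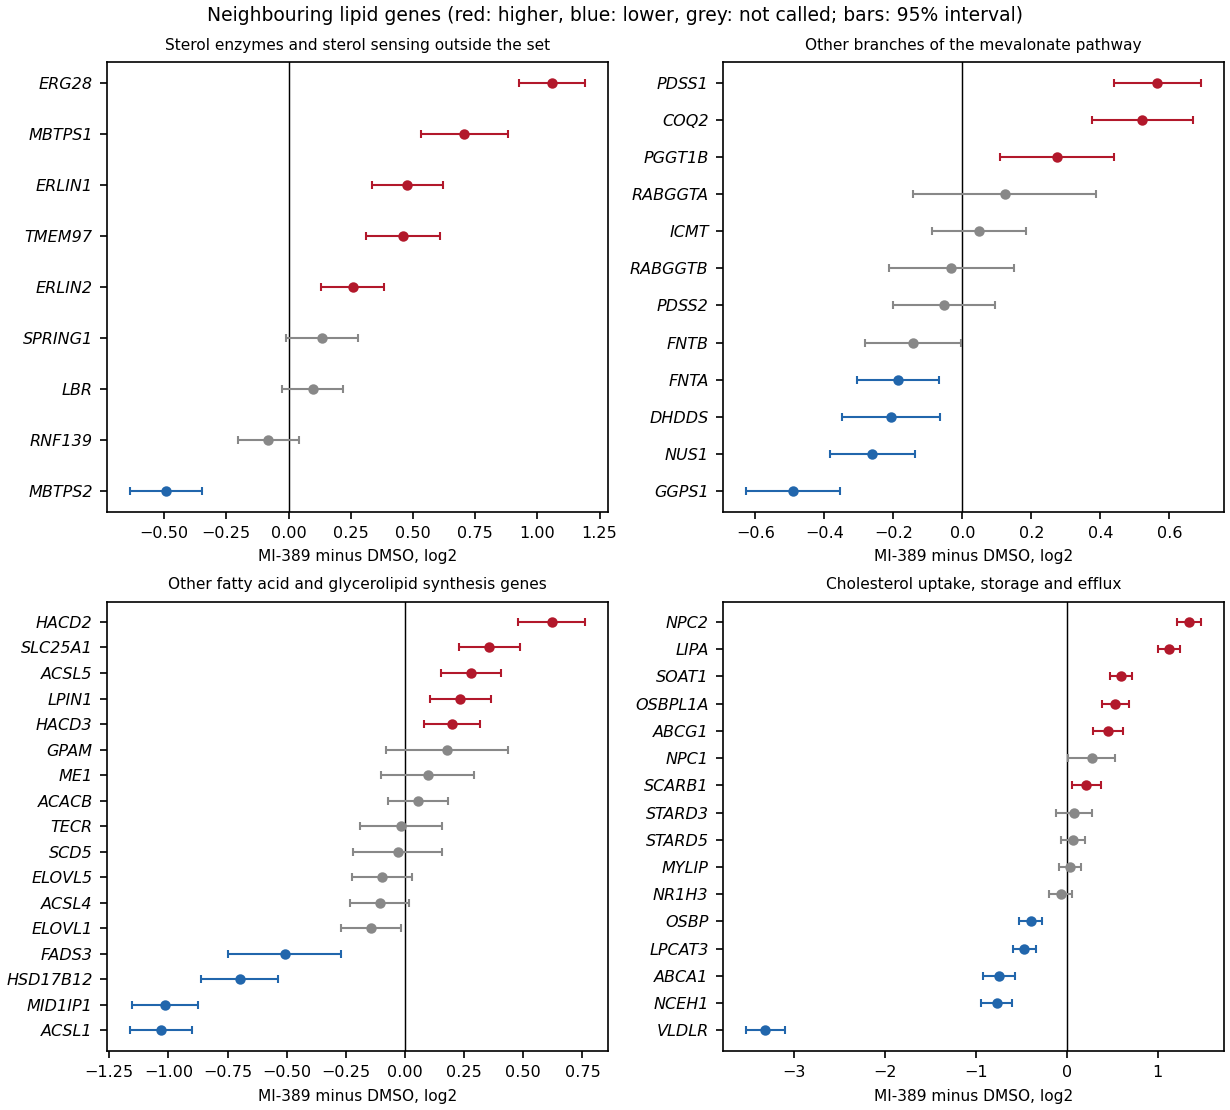
Mean log2 difference (MI-389 minus DMSO) and its 95% interval for the 54 measured genes of the 4 neighbouring lists, each list in a panel of its own. VLDLR at -3.31 and NPC2 at 1.34 are the extremes, and MBTPS1 (0.71) and MBTPS2 (-0.49) lie on opposite sides of 0.

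The size of the cholesterol rise depended on the scale. Centring the arrays on the spike-ins lowered every difference by 0.25 and moved the median of all genes to -0.23. On that scale, with 7.66% of all genes higher and 60.6% lower, the cholesterol enzymes counted 6 of 17 higher (35.3%) and 3 lower (17.6%), and the whole set 7 of 31 higher (22.6%) and 14 lower (45.2%). ACAT2 (0.51), HMGCS1 (0.20), CYP51A1 (0.44), MSMO1 (0.75), EBP (0.31), SC5D (0.40) and FADS1 (0.28) were still called higher. MVK, MVD, IDI1, FDPS, SQLE, TM7SF2 and ACSS2 kept a positive difference and were no longer called. SREBF1 (-1.62), ACACA (-1.35), SCD (-0.76) and FASN (-0.54) remained lower. Against a fold of 1.2 in limma's treat test, ACAT2, CYP51A1, MSMO1, EBP, SC5D and FADS1 were higher and SREBF1, ACACA and SCD lower, 6 and 3 of the 31, against 7.03% and 6.44% of all genes.

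**Figure D5:**
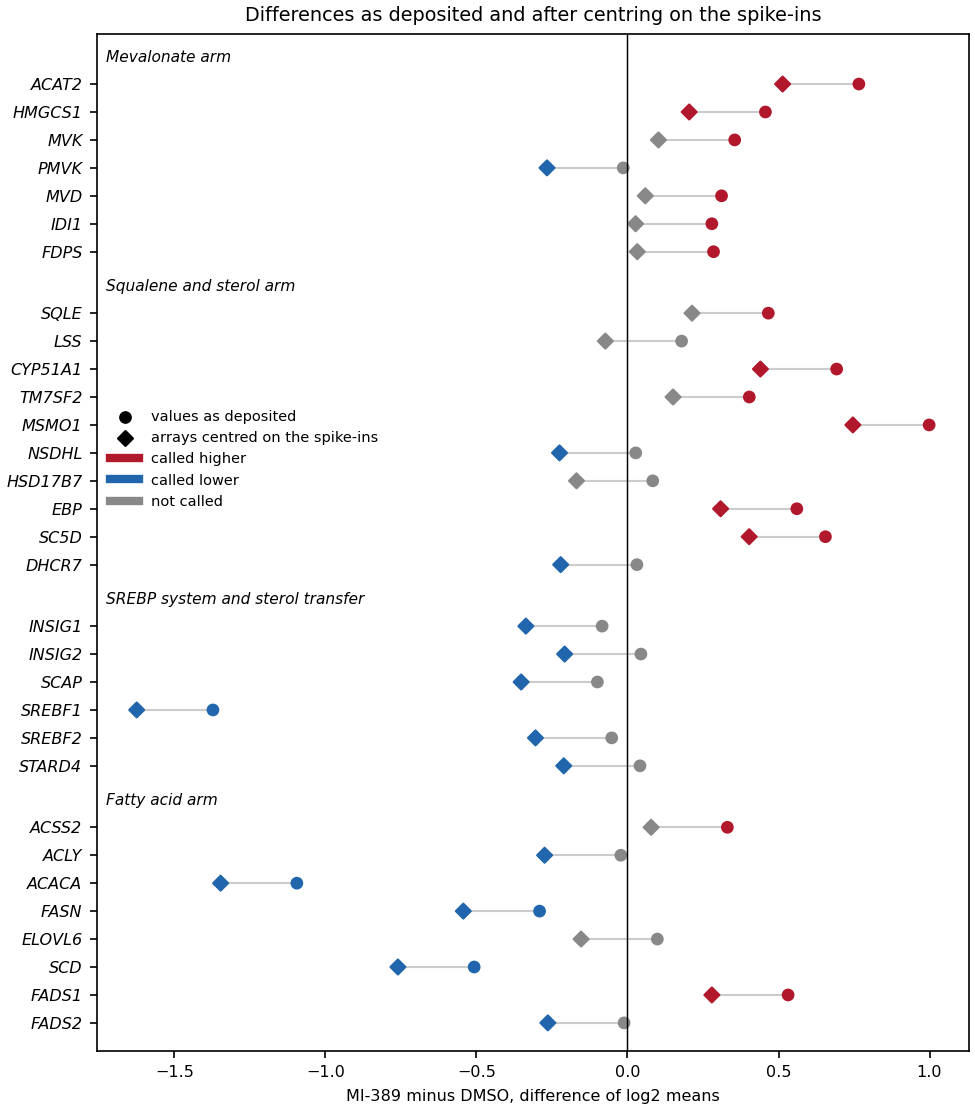
For each of the 31 genes the difference of log2 means, MI-389 minus DMSO, is drawn from the values as deposited (circles) and after centring on the spike-ins (diamonds), coloured by the call. MSMO1 lies at 1.00 as deposited and 0.75 after centring, and PMVK at -0.01 as deposited and -0.27 after it.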

How the data were processed

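Total RNA of 6 cultures was labelled by a 3-prime protocol and hybridised to Affymetrix arrays, per the labels' protocols. The log2 values were used as deposited; RMA and limma were used by the authors, per the submitters' processing notes, with settings not given in the sources used here. RMA compresses dim values, so folds of dim genes are understated, and precision is limited by the small number of arrays.

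Of 49386 probe sets, 93 controls were left out of the tests, and 45253 were annotated to 1 gene by the platform's table. Symbols were updated through the RefSeq gene table of GRCh38.p14. Each of 18239 genes took the probe set with the highest mean over all 6 arrays.

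MI-389 was compared with DMSO in limma 3.58.1 (R 4.3.3; lmFit and eBayes, two-sided), adjusted by Benjamini-Hochberg over all genes, or over all 49293 probe sets. "Rose" and "fell" mean an adjusted p under 0.05. The fit was tested on simulated data. Where one group mean was under 5.49, that level took its place in the fold. All listed pathway genes were named, and of each neighbouring list up to 3 with the largest rise and 3 with the largest fall. The genes, lists and motifs were chosen with earlier results of these data known.

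Alternatives were 3 rescalings (common median, quantile, spike-ins), leaving out dim genes, the replicate number as a block, trended robust variance, array weights, each array left out, the mean of all probe sets, suffixed probe sets last, a threshold of 0.01 and treat against a fold of 1.2.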

Additional observations from a re-analysis of the deposited data

How the results depend on the processing

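Of the 18 genes called, 14 kept their call under every change of scale, filter, variance model, block, probe set or array except the spike-in centring, and 8 of these under that too. The other 4 were MVK and FASN, which lost it without single arrays as given above, SCD, lost with the mean of its probe sets (-0.16), and MSMO1, at 0.03 (adjusted p = 0.782) when suffixed probe sets came last, which reads it from a probe set under background. No called gene changed sign in any alternative.

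With the spike-in centring 12453 genes were called, 1397 higher and 11056 lower, so that 11.2% of calls were higher, against 53.9% as deposited. Of all genes, 7.66% were higher and 60.6% lower on this scale. Beside these shares, the pathway set counted 7 of 31 higher and 14 lower. The cholesterol enzymes counted 6 of 17 higher and 3 lower, and the fatty acid arm 1 of 8 higher and 5 lower. Every gene of the SREBP system was called lower, among them INSIG1 (-0.34), SCAP (-0.35) and SREBF2 (-0.30), which were not called as deposited. NSDHL (-0.225), DHCR7 (-0.22), INSIG2 (-0.21) and STARD4 (-0.21) turned from positive, uncalled differences to called lower. Of these, DHCR7 and STARD4 lay under 5.49 in both groups as deposited. The shift follows from the construction, which subtracts 0.25 from every gene. Against a fold of 1.2, 2457 genes passed, with 6 of the pathway set higher, 5 of the cholesterol enzymes, 1 of the fatty acid arm and 19 of the 54 neighbouring genes.

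With the replicate block the pathway set stayed at 14 higher and 4 lower, with 5725 genes called in all. Deviations of equal-numbered arrays correlated at -0.20, 0.018 and -0.14, and those of unequal-numbered arrays at -0.04 to 0.20. With 3 arrays a group these values cannot decide whether the numbers pair the arrays, and the main fit did not pair them. Leaving out single arrays gave 13 to 15 higher and 3 or 4 lower. Leaving out dim genes dropped HSD17B7, STARD4 and ELOVL6, whose levels under background limit what can be read of them.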
